A study of Homo sapiens with 2 samples.

Results

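Binding of oestrogen receptor α (ERα) was examined around 7 genes of choline phospholipid metabolism: CHKA, CHKB, PCYT1A, CEPT1, PEMT, SLC44A1 and GPCPD1. A peak was assigned to a gene when its centre lay within 100 kb of the gene's transcription start on the hg19 build, and the same was asked at 20 kb. Of the 12688 peaks of the list, 11 met the wider limit and 3 the narrower one. The ERα library came from T47D cells, an established ERα-positive breast cancer line. After 48 h of culture in steroid-depleted medium, the cells were exposed to 17β-estradiol at 10 nM for 45 min before the receptor was recovered with antibody H-20. The background was 1 input library, sonicated DNA of T47D cells given the same treatment, with no antibody. There was 1 library of each kind and no unstimulated library was analysed here, so the values describe occupancy under estradiol, carry no replicate error and allow no test.

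Phosphatidylcholine is the main phospholipid of animal membranes, and most cells make it from choline by the CDP-choline pathway. Choline enters through transporters such as SLC44A1 and is phosphorylated by the choline kinases CHKA and CHKB. PCYT1A then joins phosphocholine to CTP, which is the step that usually limits the rate. CEPT1 and its relative CHPT1 transfer phosphocholine to diacylglycerol. PEMT makes phosphatidylcholine by a separate route, the methylation of phosphatidylethanolamine, and GPCPD1 releases choline again by cleaving glycerophosphocholine. Raised phosphocholine and raised CHKA are well-known features of breast cancer cells.

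ERα occupancy was listed at the start of 1 of the 7 genes. A high-scoring, wide peak lay across the start of PCYT1A, and a peak of intermediate score lay 1.5 kb upstream of SLC44A1. PEMT had a peak 13.5 kb upstream. The starts of both choline kinases, CEPT1 and GPCPD1 had 0 peaks within 20 kb. At 100 kb, CHKA had 4 peaks, PCYT1A and PEMT had 2 each, CHKB, CEPT1 and SLC44A1 had 1 each, and GPCPD1 had 0.

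In all, 3 of the 7 genes had a peak within 20 kb and 6 of the 7 within 100 kb. As a background, of 3036305 hg19 positions taken 1 per kb on chromosomes 1 to 22 and X, 11.3% had a peak centre within 20 kb and 36.5% within 100 kb. Within 2 kb the counts were 2 of the 7 genes and 1.52% of positions. Counting only peaks at or above the median score of the list, 3 of the 7 genes had one within 20 kb and 5 within 100 kb, and these shares of positions were 6.15% and 22.4%. The positions include stretches without genes and sequence in which no peak can be called. They are not a set of gene starts, so these shares do not show that the 7 genes differ from other genes.

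The promoters of PCYT1A and SLC44A1 are shown because these are the genes with a peak centre within 2 kb of the start. Each runs 5′ to 3′ on the gene's own strand, from 250 bases before the start to 50 bases that begin at it, as given by RefSeq for GRCh38.p14. Capitals mark GGTCA or its complement TGACC, the core of the half-site to which ERα binds. The PCYT1A sequence is at chr3:196287677-196287976 on the minus strand and the SLC44A1 sequence at chr9:105244401-105244700 on the plus strand of that build.
PCYT1A: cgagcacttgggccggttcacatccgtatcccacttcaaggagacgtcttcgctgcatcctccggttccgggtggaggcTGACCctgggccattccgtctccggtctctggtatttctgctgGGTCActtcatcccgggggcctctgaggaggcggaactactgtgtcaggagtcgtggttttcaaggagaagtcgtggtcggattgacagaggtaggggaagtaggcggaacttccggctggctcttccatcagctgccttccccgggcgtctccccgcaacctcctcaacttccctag
SLC44A1: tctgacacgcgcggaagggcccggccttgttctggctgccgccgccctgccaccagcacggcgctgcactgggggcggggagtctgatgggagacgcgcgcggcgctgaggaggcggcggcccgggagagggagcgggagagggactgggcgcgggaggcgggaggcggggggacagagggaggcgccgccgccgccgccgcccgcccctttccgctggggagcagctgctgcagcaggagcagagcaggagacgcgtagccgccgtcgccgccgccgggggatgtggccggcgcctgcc
The PCYT1A promoter held the core at positions -171 to -167 and -128 to -124, counted from 0 at the start, in opposite orientations. The SLC44A1 promoter held none, and was richer in G and C. The core is common, found in 37.4% of 35116 RefSeq promoters, and was chosen after results for longer motifs were seen.

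At PCYT1A, in band 3q29 with its start at 196014600, the peak ran from 196013868 to 196015338 on chromosome 3 and was 1471 bp wide. Its centre lay 3 bp from that start, which is itself a rounded position, and the 300 bp window matching the promoter fell wholly inside it. Its score was 1692.5, which ranked 732 of 12688, above 94.2% of the list. Its width exceeded that of 98.6% of the listed peaks. Over the list, width rose with score (Spearman rank correlation 0.628), so width and score are not separate marks of this peak. The score is the authors' own value for each peak, on a scale that the sources used here do not give. Only its order within the list can be read, and the size of a difference in score has no stated meaning. The peak stood apart from others, the nearest being 91.2 kb away. The next protein-coding genes in the RefSeq order are DYNLT2B on the upstream side and SLC51A on the downstream side. The neighbouring peak was the second PCYT1A peak, downstream of the start at 195923038 to 195923788, with a score of 83.31 and a width of 751 bp. The gene thus had the highest-scoring of the 11 peaks at its start and a low-scoring one far from it.

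At SLC44A1, the choline transporter gene in band 9q31.1 with its start at 108006900, the single peak lay at 108005146 to 108005691 on chromosome 9. Its centre was 1.5 kb upstream and its nearer edge 1.21 kb from the start, so the promoter shown above lay outside it. It was 546 bp wide and scored 248.49, above 68.2% of the list. The nearest other peak was 127.2 kb away. ABCA1 is the next protein-coding gene upstream and FSD1L downstream. The SLC44A1 start therefore had 1 moderate peak close by and no second one within 100 kb.

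At PEMT, the methyltransferase gene in band 17p11.2 with its start at 17495000, the nearer peak was at 17508162 to 17508754 on chromosome 17. It lay 13.5 kb upstream, was 593 bp wide and scored 506.38, above 80.8% of the list. RefSeq lists 3 starts for this gene, and the distance was measured from only 1 of them. The second PEMT peak, at 17584678 to 17585062, was 89.9 kb upstream with a score of 91.7. RAI1 is the next protein-coding gene on that side, and this peak may belong to it, since distance alone does not link a peak to a target. The nearer PEMT peak thus outscored the SLC44A1 peak while lying further from its gene.

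**Figure D1:**
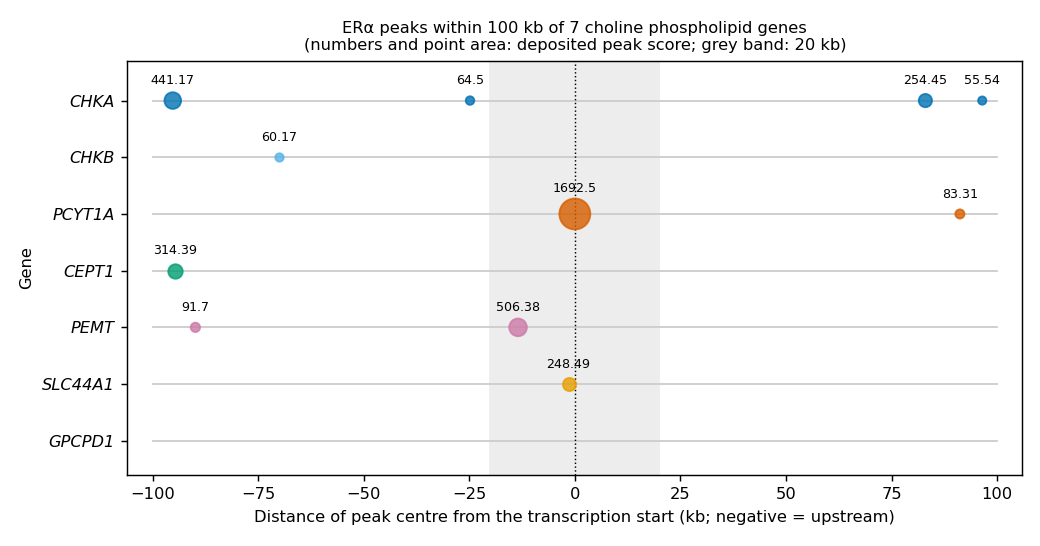
Peaks within 100 kb of each gene, with distance from the transcription start in kb on the x axis (upstream negative) and 1 row per gene. Point area and printed number give the deposited score, and the grey band marks 20 kb: only PCYT1A, PEMT and SLC44A1 have a point in the band, and GPCPD1 has none in its row.

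The choline kinase genes had peaks beyond 20 kb only. CHKA, in band 11q13.2 with its start at 67888858, had 2 peaks upstream and 2 downstream, all on chromosome 11. The nearest, at 67913471 to 67913899, was 24.8 kb upstream and scored 64.5, above only 19.9% of the list. The highest scoring was at 67983701 to 67984466, 95.2 kb upstream, with a score of 441.17 and a width of 766 bp. The downstream peaks lay 83.0 and 96.5 kb from the start, at 67805607 to 67806080 and at 67792207 to 67792556, with scores of 254.45 and 55.54. The next protein-coding genes in the RefSeq order are KMT5B on the upstream side and TCIRG1 on the downstream side. Any of these peaks may belong to another gene, since distance alone does not link a peak to a target.

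CHKB, in band 22q13.33 with its start at 51021428, had 1 peak, 70.0 kb upstream at 51091269 to 51091635 on chromosome 22. It was 367 bp wide and scored 60.17, above 15.5% of the list. On the downstream side the first peak was 282.4 kb away. The CHKB start lies 283.1 kb from the end of the chromosome. The next protein-coding genes are MAPK8IP2 upstream and CPT1B downstream. Of the 2 kinase genes, CHKA thus had more peaks. The lowest of them scored below the CHKB peak. The nearest ranked 10157 of the list against 10720 for the CHKB peak, and the other 2 scored higher. Neither gene had a peak at its start.

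CEPT1, which makes both phosphatidylcholine and phosphatidylethanolamine, is in band 1p13.3 with its start at 111682800. Its single peak was 94.7 kb upstream at 111587862 to 111588430 on chromosome 1, 569 bp wide, with a score of 314.39, above 73.0% of the list. The first peak downstream was 373.5 kb away. DRAM2 is the next protein-coding gene on the upstream side.

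GPCPD1, in band 20p12.3 with its start at 5591672, was the only one of the 7 without a peak within 100 kb. The nearest was upstream at 121.1 kb, at 5712605 to 5712944 on chromosome 20, with a score of 93.76 and a width of 340 bp. The first peak downstream was 1151.2 kb away and scored 51.66. The chromosome as a whole held 411 peaks, 6.52 per Mb. Within 1 Mb on either side of GPCPD1 only that 1 peak was listed, against a mean of 8.29 around hg19 positions.

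**Figure D2:**
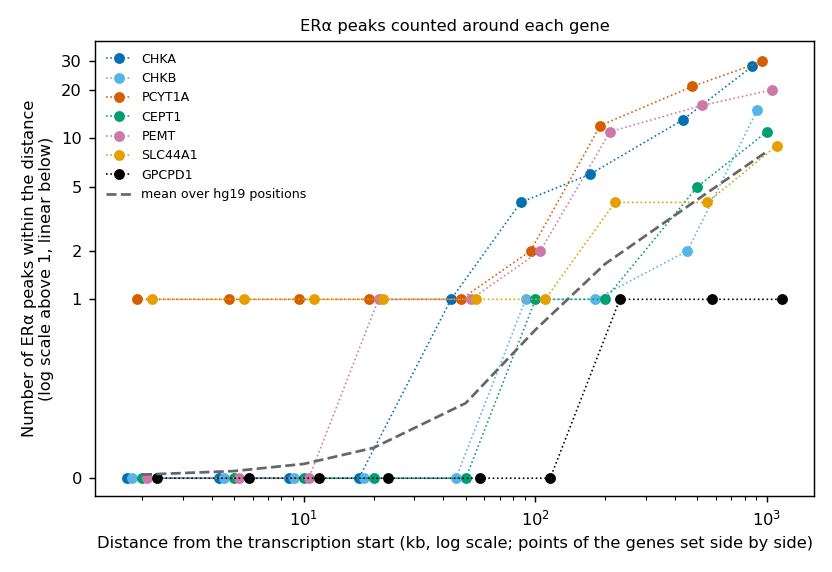
Number of ERα peaks (log scale above 1) within increasing distances of each gene start, in kb on a log axis, with points of the genes set side by side at each of 9 distances and the mean over hg19 positions dashed. PCYT1A and SLC44A1 have 1 peak at 2 kb and reach 30 and 9 at 1000 kb, whereas GPCPD1 has 0 up to 100 kb and 1 from 200 to 1000 kb, where the mean is 8.29.

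CHPT1, which catalyses the same final transfer as CEPT1, was set beside the 7 genes, with its start taken from general knowledge of hg19 to the nearest kb. The 7 genes had between 0 and 4 peaks each within 100 kb. CHPT1 had 3, all within 1.3 kb of that position, and the highest, at 102090905 to 102091821 on chromosome 12, scored 3214.31. The list crowds at its top, with 269 peaks at 3100 or more and a maximum of 3230.05, so this peak's place among them is not shown to be a difference in binding. The other CHPT1 peaks, at 102090531 to 102090860 and 102091860 to 102092728, almost adjoin it. All 3 lie closer together than 500 bp and may be parts of the same region. Merging peaks within 500 bp left the 11 peaks of the 7 genes at 11, so the CHPT1 count is not like theirs. The peak across the PCYT1A start, at 1692.5, was the nearest counterpart of the highest CHPT1 peak. It was the wider of these listed peaks, 1471 bp against 917 bp. Since the CHPT1 peaks almost adjoin, this does not show a wider bound region at PCYT1A.

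**Figure D3:**
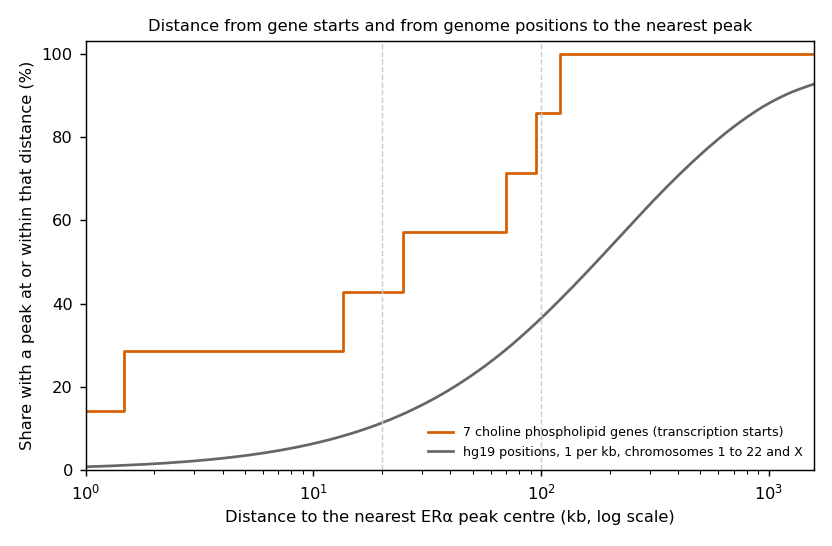
Cumulative share of the 7 gene starts (stepped line) and of hg19 positions (smooth line) against the distance to the nearest ERα peak centre in kb, on a log axis. The gene line is above the position line at 20 kb and at 100 kb (dashed verticals), and the median distance is 24.8 kb for the genes and 174.8 kb for the positions.

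The order of the genes by their nearest peak was PCYT1A, SLC44A1, PEMT, CHKA, CHKB, CEPT1 and GPCPD1. For SLC44A1, 1.15% of positions had a peak as near, for PEMT 8.18% and for CHKA 13.5%. For CHKB this share was 28.9%, for CEPT1 35.2% and for GPCPD1 40.9%. Measured on its own chromosome, GPCPD1 was further from a peak than 51.8% of positions, and the share for PEMT on chromosome 17 was 14.4%. The shares on their own chromosomes were 17.5% for CHKA, 39.7% for CEPT1, 28.6% for CHKB and 1.10% for SLC44A1.

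The scores of the 11 peaks ran from 55.54 to 1692.5 with a median of 248.49, against 128.265 for the whole list (quartiles 70.535 and 347.155). Of the 11, 6 reached the list's median, as 6344 of the 12688 peaks do by construction. The 3 peaks within 20 kb had scores of 1692.5, 506.38 and 248.49, and the other 8 had a median of 87.505, with 3 of the 8 at or above the list's median. From 100 to 200 kb, median scores were 362.0 for 10 peaks around PCYT1A and 286.13 for 9 around PEMT. The 2 peaks around CHKA scored 53.68 and 568.59, the 3 around SLC44A1 had a median of 93.2, and the 1 around GPCPD1 scored 93.76. A trend of score with distance was not tested. Widths ran from 350 to 1471 bp with a median of 546 bp, against 505 bp for the list.

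**Figure D4:**
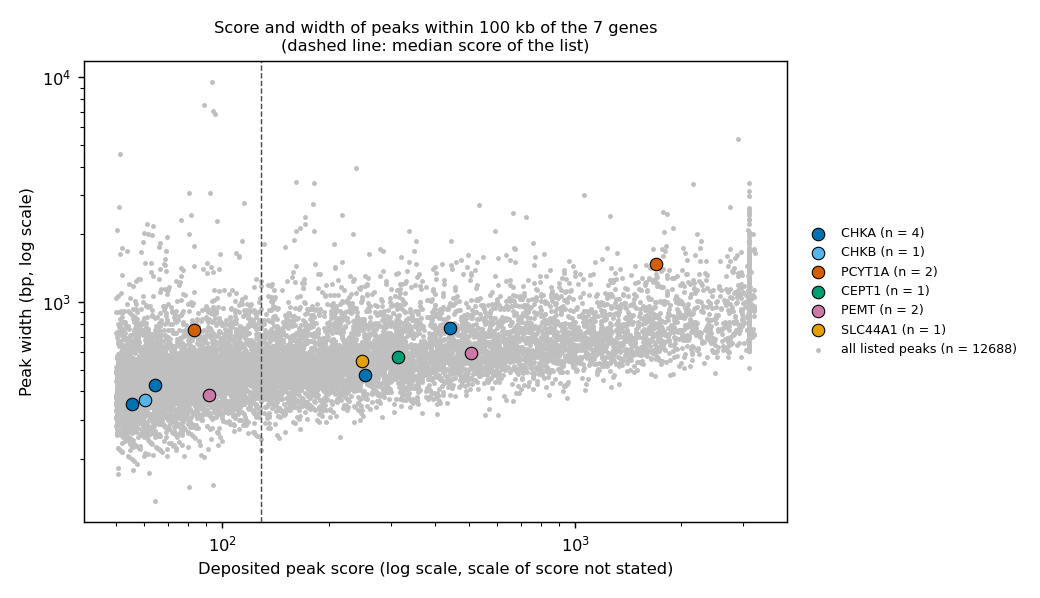
Peak width in bp against deposited score, both on log axes, for the 11 peaks near the genes (coloured points) and for all 12688 listed peaks (grey). The PCYT1A peak with a score of 1692.5 is to the right of the other 10, and 5 of the 11 lie left of the dashed line at the median score of 128.265.

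Of the 11 peaks, 1 lay across the start of its gene, 7 lay upstream and 3 downstream. Only 1 of them, a CHKA peak, had another listed peak within 10 kb, at 6.4 kb, whereas 41.4% of peaks had one over chromosomes 1 to 22 and X. Another was just past that limit for a PEMT peak, at 10.6 kb, and for a second CHKA peak, at 13.5 kb. The distance to the nearest other peak reached 352.5 kb for the CHKB peak and 274.0 kb for the CEPT1 peak.

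The limit of 100 kb decided some of these counts. Just inside it were the CHKA peak at 96.5 kb, the CHKA peak at 95.2 kb and the CEPT1 peak at 94.7 kb. Just outside it were a peak at 100.5 kb from PEMT with a score of 286.13 and one at 102.9 kb from CHKA with a score of 568.59. That CHKA neighbour scored higher than each of the 4 CHKA peaks inside the limit.

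Sequence motifs were counted in the RefSeq promoters of the 5 genes with an entry: CHKB, PCYT1A, CEPT1, PEMT and SLC44A1, with 8 promoters between them. Both strands were searched. The full oestrogen response element, GGTCA and TGACC with 3 bases of any kind between them, was in 0 of the 8, and in 0.0570% of 35116 RefSeq promoters. The half-site AGGTCA, which overlaps the full element where that is preceded by A, was in 0 of the 8 and in 13.8% of all. The forkhead motif TGTTTAC, bound by FOXA1, a factor that often accompanies ERα in breast cancer cells, was in 0 of the 8 and in 3.42% of all. The core GGTCA, which is contained in the other ERα motifs and was chosen after these results were seen, was in 4 of the 8, from CHKB, PCYT1A and PEMT, and in 37.4% of all promoters. The absence of a motif says only that its letters are not in this window, and the 1471 bp peak at PCYT1A reaches well beyond it.

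The content of G and C was above the median of all promoters in 7 of the 8. It was 60.3% at PCYT1A, 78.3% at SLC44A1 and 70.7% at CHKB, against a median of 58.7% over all promoters. The 2 CEPT1 promoters had 67.3% and 63.3%, and the 3 PEMT promoters ran from 55.3 to 65.3%. PCYT1A, with a peak across its start, was close to the median, with 19 CpG dinucleotides against a median of 14, and SLC44A1 had 40.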

How the data were processed

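ERα-bound DNA and input DNA were sequenced from estradiol-treated T47D cells, 1 library each. The authors deposited 1 peak list of the ERα library over the input. Each peak has a deposited score from the authors' caller, whose scale is not stated. Per the file, peak names carry the MACS prefix. Per the submitters' processing notes, CASAVA 1.8, Bowtie 0.12.9, HOMER and hg19 were used, with no role or order given. Neither the caller's version nor its threshold is given in the sources used here, nor is the handling of repeated reads. Peak positions are other deposited values, whole bases counted from 0, and 1 was added to starts. The read depth is unknown, so no interval or detection limit is given.

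Gene starts were those of the rule that defined the 7 genes, some of them rounded, and upstream and downstream follow the gene's strand. The strand came from RefSeq for 5 genes and from general knowledge for CHKA and GPCPD1. No hg19 annotation of genes or hg19 sequence was used here, so exons, introns and the sequence of peaks are not described. Neighbouring genes and promoter sequences came from RefSeq tables of GRCh38.p14, matched by symbol. Chromosome lengths and bands of hg19 came from the R packages GenomeInfoDb 1.38.1 and circlize 0.4.16, and on 0 of 23 chromosomes did the last peak end past the hg19 length. The distance count was checked on simulated data. All 7 genes and every peak within 100 kb are named. The genes and lists were chosen with earlier results of these data known. Alternatives were a stricter score, merging of peaks, edges in place of centres, shifted starts, other distances and mismatches in motifs. The computation ran in Python 3.11.15 with pandas 2.3.3 and NumPy 2.4.6, and figures were drawn with matplotlib 3.10.9.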

Additional observations from a re-analysis of the deposited data

How the results depend on the processing

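The 3 genes with a peak within 20 kb stayed 3 with peaks at or above the median score, with peaks within 500 bp merged, with peak edges in place of centres and with starts moved by 1 kb either way, and were 2 for the 3172 highest-scoring peaks of the list, where SLC44A1 had 0. Within 100 kb the 11 peaks became 6 at that median and 3 among those 3172. The 6 genes with such a peak became 5 and 3. The median distance to the nearest peak, 24.8 kb, became 83.0 and 125.7 kb. These limits keep 6344 and 3172 of the 12688 peaks by construction. Counts would fall and distances lengthen around other positions too, so these changes are not particular to the 7 genes. Shares of positions were not computed for the 3172 peaks, nor distances over positions for either shorter list. Moving starts 1 kb higher gave 12 peaks within 100 kb. All 7 genes had a peak within 200 kb, against 53.4% of positions, 4 within 50 kb (22.9%), and 2 within 10 kb (6.36%), 5 kb (3.47%) and 2 kb (1.52%), the last distance chosen after seeing the data. The shares of positions were 13.7% at 20 kb and 42.1% at 100 kb on the 7 chromosomes of the genes, and 14.8% and 46.9% without peak-free stretches of over 2 Mb. With 1 mismatch, AGGTCA was found in 7 of the 8 promoters, from 4 genes, and in 89.7% of all, and TGTTTAC in 2 of the 8, from 1 gene, and in 40.7% of all. With 2 mismatches, tried after seeing the data, the full response element was found in 2 of the 8, from 2 genes, PCYT1A and PEMT, and in 10.2% of all. No paired analysis was possible because the ChIP and the input each have a single library. The unknown depth limits which weak sites could be listed, so a gene without a listed peak is not shown to lack binding.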

Other observations

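From 100 to 200 kb there were 10 peaks around PCYT1A, 8 of them downstream, with scores from 50.68 to 1317.68 and 6 of them reaching the list's median. The highest of them lay 140.7 kb downstream at 195873073 to 195874728 on chromosome 3 and was 1656 bp wide. Around PEMT there were 9 in the same range, 7 of them upstream and 6 at or above the median. Its highest, at 17686280 to 17687104 on chromosome 17, scored 1759.99 and lay 191.7 kb upstream, on the side where RAI1 is the next protein-coding gene. This score is above that of the peak across the PCYT1A start.

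Around CHKA 2 peaks lay in this range, around SLC44A1 3, around GPCPD1 1, and around CHKB and CEPT1 0. Within 200 kb in all, PCYT1A had 12 peaks and PEMT 11, against a mean of 1.66 around hg19 positions, of which 1.39% had 12 or more and 1.81% 11 or more. As many as the 6 of CHKA were found at 7.83% of positions, as many as the 4 of SLC44A1 at 15.3%, and the 1 each of CHKB, CEPT1 and GPCPD1 at 53.4%. Within 1 Mb the counts were 30 for PCYT1A, 28 for CHKA, 20 for PEMT, 15 for CHKB, 11 for CEPT1, 9 for SLC44A1 and 1 for GPCPD1. In the same order, 2.89%, 3.72%, 9.73%, 18.5%, 29.6%, 36.9% and 88.1% of positions had at least that many. For CHKB the chromosome ends 283.1 kb upstream, so its count within 1 Mb covers less sequence than those of the other genes. The nearest peak at or above the median score was 282.4 kb from CHKB and 1938.3 kb from GPCPD1.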
